A study of Saccharomyces cerevisiae with 6 samples.

Results

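The proteasome is the barrel-shaped protease that destroys ubiquitin-tagged proteins in the cytosol and nucleus. Its core particle is a stack of alpha and beta rings with the cutting sites inside, and its regulatory cap, made of a base with an ATPase ring and a lid, recognises, unfolds and feeds in the substrates. In budding yeast most of these genes share an upstream element bound by Rpn4, a transcription factor that is itself a short-lived proteasome substrate, so that the cell can raise subunit synthesis when proteolysis falls behind. The proteasome genes were picked by their symbols, as those named PRE, PUP, RPN or RPT with a number, together with SCL1. Further pathway genes come from lists made by role. Both the symbol rule and the lists were set with earlier results of these data known. The rule took in 34 of 5449 genes tested, of which RPN4 is read apart. The other 33 comprised 14 core subunit genes, 18 cap subunit genes and RPN14, which encodes a chaperone of base assembly and no subunit of the finished particle.

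Expression was compared between Saccharomyces cerevisiae with histone H2A R78A, in which an arginine that reaches into the DNA minor groove is replaced by alanine, and yeast with wild-type H2A. Each group had 3 one-colour Affymetrix arrays of RNA from cells growing in mid-log phase in rich glucose medium at 30 °C. The labels give neither the strain background nor the source of the remaining H2A, and whether the replicates came from separate cultures is not stated. The p-values therefore rest on a spread between arrays that may be technical. The mutation itself cannot be read by these probe sets. Values are signals on a linear scale, set by the authors to a trimmed mean of 500 on every array, so each level is relative to the other transcripts of that array. The number of arrays limits the precision. The spread of signals was narrower in the mutant. The 90th percentile of all genes was at 997.1 to 1050 on the mutant arrays and at 1070 to 1106 on the wild-type arrays. The 10th percentile was at 121 to 135.3 on the mutant arrays and at 90.2 to 101.6 on the wild-type arrays.

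Transcripts of the proteasome subunits differed little between the mutant and wild type. Of the 33 genes, RPN14 was higher in H2A R78A, PUP3, RPN13 and RPN6 were lower, and 29 did not pass an adjusted p of 0.05 (limma moderated test, Benjamini-Hochberg adjustment over all 5449 genes). The 1 higher gene is 3.03% of the 33, against 17.9% of all genes tested. The 3 lower genes are 9.09%, against 9.18% of all genes. The share of lower genes was thus that of all genes, and the share of higher genes was below it. The all-gene shares include dim genes, whereas all 33 members lay above the background level. With dim genes left out 0 members were higher, against 10.3% of all genes kept, and 3 were lower, against 9.59%. At an unadjusted p under 0.05 there were 7 of the 33, against 40.4% of all genes. The signals of the groups did not overlap for 2 of the 33 with the mutant higher, against 25.7% of all genes. They did not overlap for 5 of the 33 with the mutant lower, against 17.4%.

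The differences were small in size. Log2 differences, H2A R78A minus wild type, ran from -0.25 for RPN13 to 0.23 for RPN14, with standard errors of 0.05 to 0.11. None of the 33 genes reached a 1.5-fold difference in either direction, against 8.66% of all genes. The 95% interval of the difference lay within 1.5-fold for 33 of 33 genes, against 81.2% of all genes, and within 1.2-fold for 19 of 33, against 27.7%. The median log2 difference of the 33 genes was -0.07, against 0.02 over all genes. The difference was negative for 24 and positive for 9, against 2486 negative and 2963 positive over all genes. All 33 genes had a mean signal above the level used as background, which was a log2 signal of 7.86. The all-gene shares for 1.5-fold and 1.2-fold also count genes below that level. Each was read by a single probe set without the suffixes that mark sequence shared between genes.

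**Figure D1:**
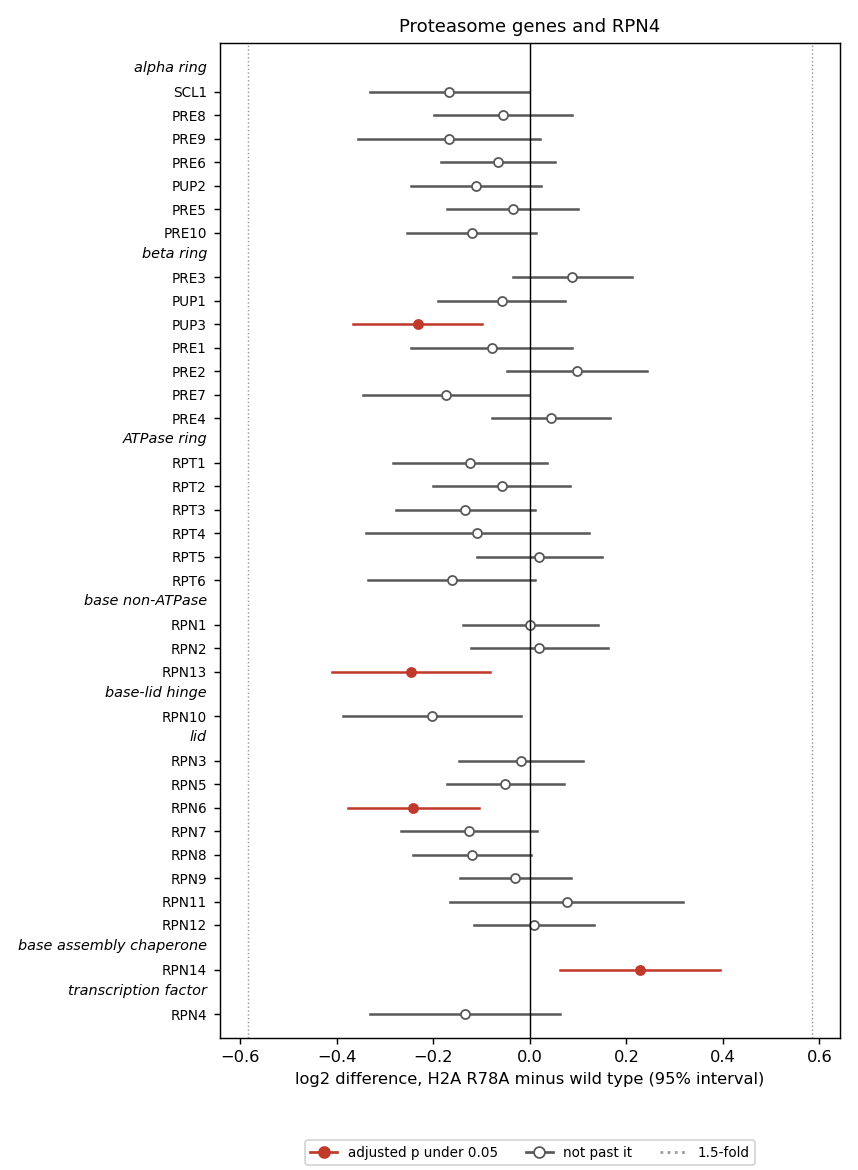
Log2 difference between H2A R78A and wild type (x axis) for each of the 33 proteasome genes and RPN4 (rows, grouped by subcomplex), with the 95% interval of the limma fit as a line; filled red symbols passed an adjusted p of 0.05, open grey ones did not, and dotted lines mark 1.5-fold. PUP3, RPN13 and RPN6 lie on the negative side and RPN14 on the positive side, and every interval ends inside the dotted lines.

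The position of the whole set depended on the scaling of the arrays. After quantile normalization, which gives all arrays the same distribution of signals, the median log2 difference of the 33 genes was -0.0079, against -0.03 over all genes, so that the set lay above the all-gene median and not below it. Of the 33 differences 16 were then positive and 17 negative, against 2393 positive and 3056 negative over all genes. In limma 0 members were then higher, against 10.5% of all genes, and only PUP3 was lower, against 9.82%. At an unadjusted p under 0.05, 4 members were higher and 2 lower after this normalization, against 16% higher and 18.8% lower over all genes. No pairing of the arrays is stated in the labels, and equal replicate numbers were taken to pair them from these same data. With that number as a block 8 members were lower, or 24.2%, against 15.7% of all genes, and 1 was higher, against 23.7%. The members that passed as lower with the block beside PUP3, RPN13 and RPN6 were SCL1, PRE9, PRE7, RPT6 and RPN10 (limma adjusted p from 0.0231 to 0.0479).

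**Figure D2:**
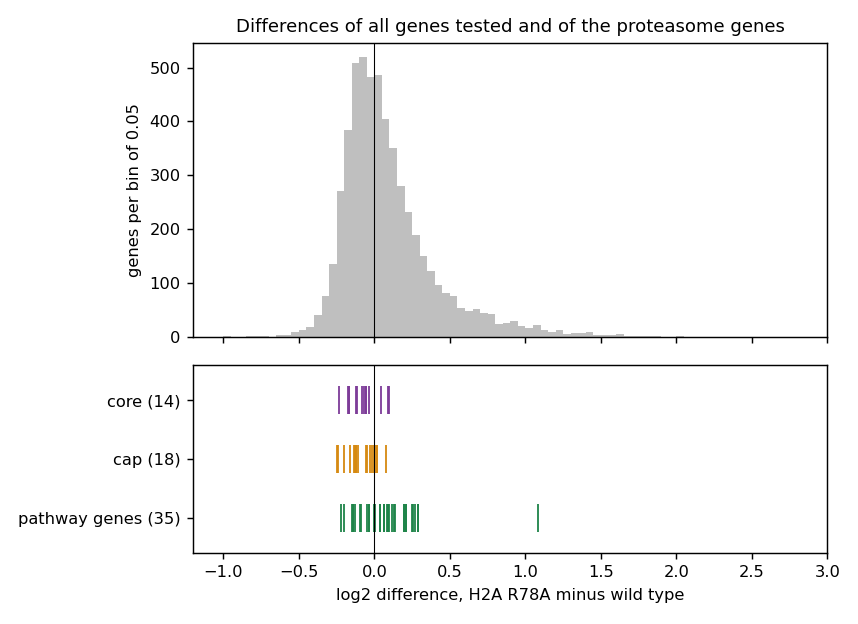
Histogram of the log2 difference, H2A R78A minus wild type, over all 5449 genes tested (upper panel, genes per bin of 0.05), and the same difference for each of 14 core genes, 18 cap genes and 35 further genes of the ubiquitin and proteasome pathway (lower panel, a tick for each gene). The core and cap ticks lie between -0.25 and 0.10, while the histogram has a long tail of positive differences; the pathway tick near 1.09 is UBI4.

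The mutant arrays differed from each other in the level of these genes by more than the mean difference of -0.07 between the genotypes, and the wild-type arrays by less. Averaged over the 33 genes, the log2 deviation from each gene's wild-type mean was -0.13, -0.0064 and -0.07 on mutant replicates 1, 2 and 3, against 0.00045, 0.02 and -0.02 on wild-type replicates 1, 2 and 3. Mutant replicate 2 thus sat at the wild-type level, while mutant replicate 1 lay lowest. Mutant replicate 2 was the brightest of the 3 mutant arrays for 26 of the 33 genes, or 78.8%, against 34.9% of all genes. Mutant replicate 1 was the dimmest for 27 of them, or 81.8%, against 26.7% of all genes. Most subunit transcripts thus moved together between arrays of a single genotype. The 90th percentile of all genes had the same order, at 997.1, 1050 and 1019 on mutant replicates 1, 2 and 3. The all-gene shares for the brightest and dimmest array also count dim genes. Outside the set, the bright gene ACT1 had this order too, with 1407, 1649 and 1615 on mutant replicates 1, 2 and 3. ADH1 was likewise lowest on replicate 1 but highest on replicate 3, with 1957, 2066 and 2092. Whether the shift was shared by bright transcripts in general was not tested, so it cannot be called particular to proteasome genes. After quantile normalization the averages were -0.04, 0.04 and 0.00051 on the mutant arrays and 0.0056, 0.0035 and -0.0091 on the wild-type arrays. Without mutant replicate 2 the same 8 members as with the block were lower, or 24.2%, against 11% of all genes. Without mutant replicate 1 there were 0 lower in limma, against 4.18% of all genes. At an unadjusted p under 0.05, 3 members were lower in that setting, a count for which no all-gene share was computed. The median standard deviation of a member's log2 signal was 0.07 over the mutant arrays and 0.05 over the wild-type arrays, against 0.09 and 0.10 over all genes.

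**Figure D3:**
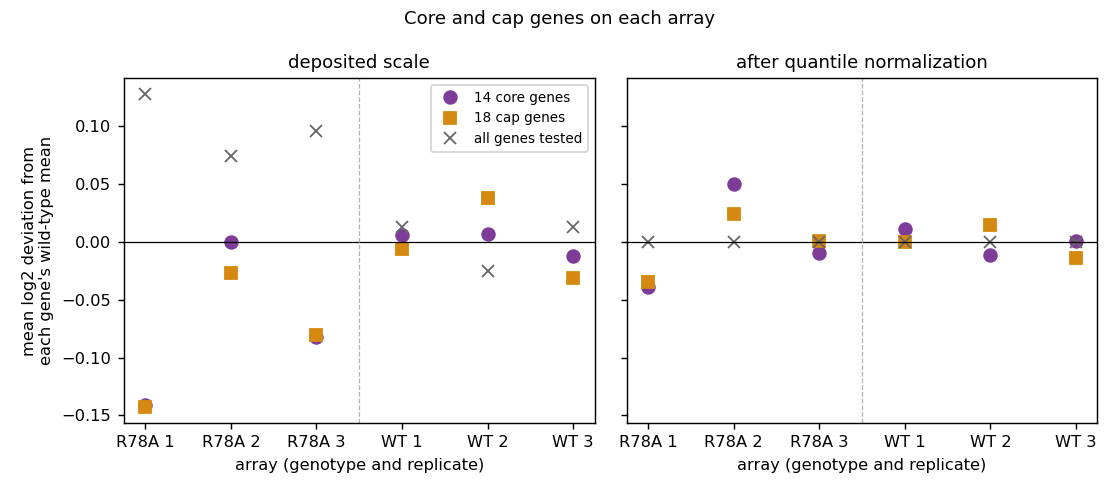
Mean log2 deviation from each gene's wild-type mean (y axis) on each of the 6 arrays (x axis, mutant arrays left of the dashed line), for 14 core genes (circles), 18 cap genes (squares) and all genes tested (crosses), on the deposited scale (left) and after quantile normalization (right). Core and cap lie close together on each array, and on the deposited scale mutant replicate 1 is at -0.14 for both while mutant replicate 2 is near 0.

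Core and cap genes had nearly the same differences. The median log2 difference was -0.07 for the 14 core genes and -0.08 for the 18 cap genes. The core minus cap difference of these medians was 0.01, below the 0.02 by which core minus cap varied between replicates (pooled SD of the per-array means). Of the core genes 1, or 7.14%, was lower and 0 higher in limma, with 3 at an unadjusted p under 0.05. Of the cap genes 2, or 11.1%, were lower and 0 higher, likewise with 3 at an unadjusted p under 0.05. Over all genes 9.18% were lower, 17.9% higher and 40.4% had an unadjusted p under 0.05. Those all-gene shares also stand beside the counts for single rings and lists below. Between arrays the core and the cap followed each other, with core averages of -0.14, -0.00051 and -0.08 on mutant replicates 1, 2 and 3 and cap averages of -0.14, -0.03 and -0.08. The sign of the core minus cap difference changed under several settings, and its range over the arrays left out in turn was -0.02 to 0.04.

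The alpha rings close the ends of the core and gate the entry of substrates. All 7 alpha subunit genes had negative differences, with a median of -0.11, and 0 of the 7 passed in limma, where 1 had an unadjusted p under 0.05. SCL1, for alpha1, and PRE9, for alpha3, the only core subunit that yeast can live without, both had log2 differences of -0.17. SCL1 had signals of 1208, 1495 and 1273 in the mutant, against 1489, 1481 and 1477 in wild type. The wild-type arrays were nearly alike for SCL1, and mutant replicate 2 lay above all of them (limma adjusted p = 0.119). For PRE10, which encodes alpha7, the groups did not overlap, with signals of 1089.6 to 1150.2 in the mutant and 1159 to 1305 in wild type, but the difference of -0.12 did not pass (limma adjusted p = 0.162). The differences of PUP2 (alpha5), PRE6 (alpha4), PRE8 (alpha2) and PRE5 (alpha6) were -0.11, -0.07, -0.06 and -0.04.

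The beta rings hold the proteolytic sites, in 3 subunits with different cleavage preferences. PRE3 encodes beta1, which cuts after acidic residues, and had signals of 833, 862 and 826 in the mutant, against 786, 779.8 and 807 in wild type. The groups did not overlap for PRE3, with the mutant above wild type, but the difference of 0.09 did not pass (limma adjusted p = 0.267). PUP1, for beta2 with its preference for basic residues, had 865, 937 and 919 in the mutant, against 919, 932 and 982 in wild type (log2 difference -0.06, limma adjusted p = 0.489). The PUP1 groups overlapped, with mutant replicate 1 lowest.

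PRE2 encodes beta5, the site that cuts after hydrophobic residues. Its signals were 1258, 1142 and 1268 in the mutant, against 1218, 1083 and 1127 in wild type. This was the largest positive difference of any subunit gene that did not pass, at 0.10 with a 95% interval of -0.05 to 0.24 (limma adjusted p = 0.292). The PRE2 groups overlapped because wild-type replicate 1 lay above mutant replicate 2, and in both groups replicate 2 was lowest. With quantile normalization and the replicate block together PRE2 passed as higher (log2 difference 0.20, limma adjusted p = 0.0065).

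PUP3, for the beta3 subunit, which has no active site, was the only core gene to pass. Its signals were 634, 672 and 632 in the mutant, against 762, 780.4 and 735 in wild type. Every mutant array lay below every wild-type array. The means were 646 ± 22.6 in the mutant and 759 ± 22.8 in wild type (SD, n = 3 each), a log2 difference of -0.23 ± 0.06 (SE; limma adjusted p = 0.0177), or 14.9% lower. PUP3 was the only member lower under each of the scalings tried, with limma adjusted p-values of 0.032 after quantile normalization, 0.0459 with cyclic loess and 0.00787 with median centring. The call ended without mutant replicate 1 (limma adjusted p = 0.0719), without mutant replicate 3 (0.0749) and without wild-type replicate 1 (0.0597).

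The other beta genes did not pass. PRE7, for beta6, had the most negative difference among them at -0.17 (limma adjusted p = 0.121), followed by PRE1, for beta4, at -0.08 (0.464). PRE4, for beta7, was at 0.04 (limma adjusted p = 0.583).

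In the base of the cap, the 6 Rpt ATPases form the ring that unfolds substrates and opens the core. Their genes had differences from -0.16 for RPT6 to 0.02 for RPT5, with a median of -0.12, and 0 of 6 passed in limma (lowest adjusted p 0.148, and 0 with an unadjusted p under 0.05). RPT3, RPT1, RPT4 and RPT2 were at -0.13, -0.12, -0.11 and -0.06. RPT4 had the largest standard error of the 6, with signals from 687 to 839 in the mutant and from 708 to 936 in wild type. Replicate 2 was highest in both groups for RPT4, and also for RPT1, RPT2, RPT3 and RPT6, but not for RPT5. RPN1 and RPN2, for the large scaffold subunits of the base, had differences of 0.00028 and 0.02. Their 95% intervals were -0.14 to 0.14 for RPN1 and -0.12 to 0.16 for RPN2.

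RPN13 and RPN10 encode ubiquitin receptors of the cap, a role that Rpn1 shares, and both had negative differences, unlike RPN1. RPN13 had signals of 679, 791 and 681 in the mutant, against 889.9, 837 and 821 in wild type. The groups did not overlap, although mutant replicate 2 came close to the wild-type range. The means were 717 ± 64.1 in the mutant and 849 ± 36.2 in wild type (SD, n = 3 each), a log2 difference of -0.25 ± 0.07 (SE; limma adjusted p = 0.0315), or 15.7% lower. The RPN13 call ended after quantile normalization (log2 difference -0.21, limma adjusted p = 0.0684), where it passed with the replicate block (0.043). It also ended with cyclic loess (0.084) and without any of mutant replicate 1, mutant replicate 3, wild-type replicate 1 and wild-type replicate 2 (0.0584 to 0.123). The RPN13 call ended as well with low values raised (limma adjusted p = 0.0833) and without the trend (0.0632).

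RPN10, which sits between base and lid, had 892, 1065 and 951 in the mutant, against 1148, 1198 and 1004 in wild type. It had the most negative difference of the members that did not pass, at -0.20 ± 0.08 (SE; limma adjusted p = 0.093). The groups overlapped because mutant replicate 2 lay above wild-type replicate 3. The RPN10 difference passed without mutant replicate 2 (log2 -0.27, limma adjusted p = 0.0258), without wild-type replicate 3 (-0.28, 0.0322) and with the replicate block (-0.20, 0.0231). It also passed with median centring (-0.26, 0.0457) and array weights (-0.24, 0.0145), and was -0.11 after quantile normalization (0.266).

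The lid removes the ubiquitin chain, and RPN11 encodes the deubiquitinase that does so. RPN11 had signals of 699.6, 585 and 745 in the mutant, against 568, 622 and 736 in wild type. Its groups covered nearly the same range, and it had the largest standard error of the members (log2 difference 0.08 ± 0.11, limma adjusted p = 0.634). Its partner RPN8, a protein of the same fold without the active site, had a difference of -0.12 (limma adjusted p = 0.129). The RPN8 groups did not overlap, at 979 to 1044 in the mutant and 1076 to 1130.3 in wild type.

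RPN6, for a lid subunit that bridges the lid to the core, was lower in the mutant. Its signals were 1358, 1499 and 1479 in the mutant, against 1673, 1635 and 1819.8 in wild type. Every mutant array lay below every wild-type array. The means were 1445 ± 76.4 in the mutant and 1709 ± 97.5 in wild type (SD, n = 3 each), a log2 difference of -0.24 ± 0.06 (SE; limma adjusted p = 0.016), or 15.4% lower. After quantile normalization the difference of RPN6 shrank to -0.10 (limma adjusted p = 0.168), and with cyclic loess also to -0.10 (0.202). The RPN6 call also ended without mutant replicate 1 (limma adjusted p = 0.0501) and without wild-type replicate 3 (0.0562). With low values raised the limma adjusted p of RPN6 was 0.058, and with the replicate block after quantile normalization it was 0.104.

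The remaining lid genes encode scaffold subunits, and none of the 5 passed in limma or had an unadjusted p under 0.05. RPN7, RPN5, RPN9, RPN3 and RPN12 were at -0.13, -0.05, -0.03, -0.02 and 0.0083, with limma adjusted p-values of 0.161 or more. RPN9 had the narrowest spread in wild type, with signals of 1093, 1090.3 and 1096, and 1047, 1096 and 1068 in the mutant. With quantile normalization and the replicate block together RPN12 passed as higher.

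**Figure D4:**
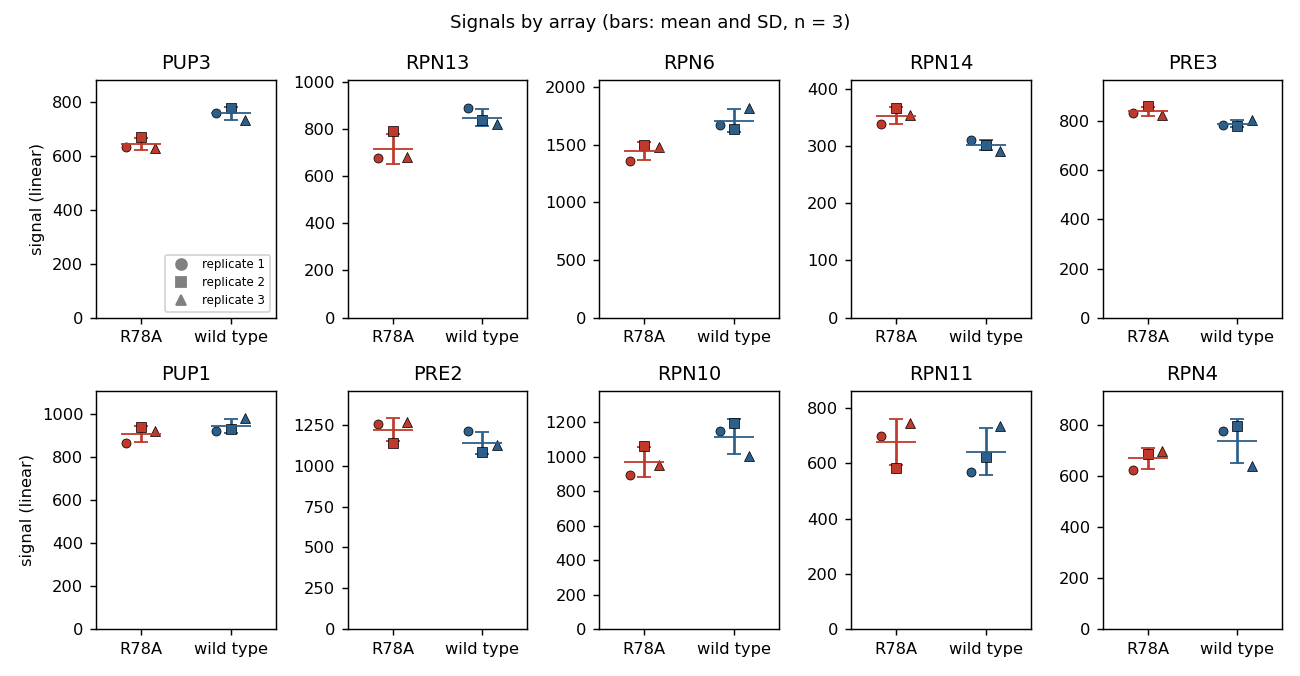
Signal on a linear scale (y axis, from 0) on each array for 10 genes, with H2A R78A in red on the left and wild type in blue on the right of each panel; circles, squares and triangles are replicates 1, 2 and 3, and bars show the mean and SD (n = 3). PUP3, RPN13 and RPN6 have all mutant points below the wild-type points, RPN14 and PRE3 have them above, and the groups of the other 5 genes overlap.

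The difference of RPN4 between the groups did not pass. Its signals were 622, 685 and 697 in the mutant, against 777, 794 and 637 in wild type, so that wild-type replicate 3 lay among the mutant arrays. The means were 668 ± 39.8 in the mutant and 736 ± 85.9 in wild type (SD, n = 3 each), a log2 difference of -0.13 with a 95% interval of -0.33 to 0.06 (limma adjusted p = 0.285). The difference passed as lower without wild-type replicate 3 (log2 -0.24, limma adjusted p = 0.0449). Transcript levels do not show the amount of Rpn4 protein, which is set largely by its turnover.

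None of the genes listed as acting on RPN4 or on its protein passed. The list held RAD6, UBR2 and MUB1, for the ubiquitin ligase that marks Rpn4 for destruction, and YAP1, PDR1, PDR3 and HSF1, for transcription factors that act on the RPN4 promoter. Of these 7 genes 0 were called in limma, 0 had an unadjusted p under 0.05, and the median log2 difference was 0.07. The differences ran from -0.15 for PDR1 to 0.21 for MUB1. UBR2 lay just above the background level, with signals of 198 to 279 in the mutant and 230.0 to 265 in wild type. MUB1 was dim, with 176 to 195 in the mutant and 129 to 181 in wild type.

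RPN14 was the only gene of the symbol rule that rose. It had signals of 339, 367 and 354 in the mutant, against 311, 303 and 292 in wild type, without overlap. The means were 354 ± 14.3 in the mutant and 302 ± 9.31 in wild type (SD, n = 3 each), a log2 difference of 0.23 ± 0.07 (SE; limma adjusted p = 0.0453), or 17.1% higher. That call was near the threshold, and it ended after quantile normalization (log2 difference 0.13, limma adjusted p = 0.276), with median centring (0.127), with cyclic loess (0.209) and without any single array (0.0746 to 0.131). The RPN14 call ended as well with dim genes left out (limma adjusted p = 0.0543) and with low values raised (0.0536).

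Assembly chaperones guide the rings together and leave or are destroyed once the particle is complete. Of 10 listed chaperone genes, RPN14 included, 4 were higher and 0 lower in the mutant, with a median log2 difference of 0.11, against 17.9% higher and 9.18% lower over all genes. The same 4 chaperone genes, and 0 lower, had an unadjusted p under 0.05 in limma. PBA1, for a chaperone of the alpha ring, had signals of 481, 428 and 504 in the mutant, against 384, 365 and 409 in wild type (log2 0.29, limma adjusted p = 0.0279). POC4, for another alpha ring chaperone, had 362, 360.0 and 377 in the mutant, against 327, 314 and 284 in wild type (log2 0.25, limma adjusted p = 0.0415). TMA17, for a stress-linked chaperone of base assembly, had 553, 631 and 566 in the mutant, against 492, 533 and 446 in wild type (log2 0.25, limma adjusted p = 0.0459). The groups overlapped for none of PBA1, POC4 and TMA17. Of the 10 chaperone genes 5 had groups without overlap and the mutant higher, against 25.7% of all genes. These 5 include NAS2, which was dim, with a mean log2 signal of 7.22 against the background level of 7.86. The NAS2 difference of 0.09 did not pass (limma adjusted p = 0.515) and was -0.23 after quantile normalization. After quantile normalization none of the 4 passed, with limma adjusted p-values of 0.068 for PBA1, 0.188 for POC4 and 0.0793 for TMA17. PBA1 and TMA17 passed when the replicate block was added to that normalization (0.0217 and 0.0213). Without the block 0 of the 10 were higher in limma after quantile normalization (2 at an unadjusted p under 0.05). With median centring the limma adjusted p-values were 0.054 for PBA1, 0.0965 for POC4 and 0.112 for TMA17, and with low values raised 0.0769, 0.0742 and 0.111. With cyclic loess POC4 and TMA17 did not pass (limma adjusted p = 0.155 and 0.0582), nor with dim genes left out (0.0512 and 0.056). PBA1 passed in both settings (0.0494 and 0.0378). TMA17 did not pass without the trend either (0.0759). The POC4 call ended without any single array (0.0518 to 0.142), the TMA17 call without any except wild-type replicate 2 (0.0697 to 0.13), and the PBA1 call without mutant replicates 1 or 3 or wild-type replicates 1 or 2 (0.0766 to 0.123).

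The genes of partner proteins had other values. IRC25, named after its values were seen, encodes the protein that pairs with Poc4, and had 297, 275 and 324 in the mutant, against 359.8, 359.3 and 313 in wild type. Its log2 difference was -0.20 (limma adjusted p = 0.125), and it passed as lower after quantile normalization (-0.30, 0.0445). ADD66, for the partner of Pba1, was at 0.14 (limma adjusted p = 0.301), and UMP1, for the chaperone enclosed in the maturing core, at 0.09 (0.375). The base chaperone genes NAS2, HSM3 and NAS6 were at 0.09, 0.04 and -0.0048.

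Among proteins that bind the finished particle or carry substrates to it, ECM29 and DDI1 rose. ECM29 encodes a protein that holds core and cap together, and had 705, 684 and 739.5 in the mutant, against 606, 641 and 607 in wild type (log2 0.20, limma adjusted p = 0.0383). It was 1 of 8 listed associated genes to pass, or 12.5%, against 17.9% of all genes higher. The list had 0 lower, also by unadjusted p, and a median of 0.02. The ECM29 call remained after quantile normalization (limma adjusted p = 0.0297) and ended with median centring (0.129) and without mutant replicate 1 (0.101), mutant replicate 3 (0.155), wild-type replicate 1 (0.117) or wild-type replicate 3 (0.0867). Without the trend the ECM29 call also ended (limma adjusted p = 0.0612). SEM1, for the smallest lid subunit, which the symbol rule misses, was at 0.08 (limma adjusted p = 0.552), and BLM10, for an alternative cap, at -0.05 (0.7).

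DDI1 encodes a ubiquitin shuttle with a protease domain. Its signals were 494, 525 and 517 in the mutant, against 426, 419 and 413 in wild type. The groups were well apart, with a log2 difference of 0.29 ± 0.07 (SE; limma adjusted p = 0.00904), and the DDI1 call held under all 17 alternatives, with adjusted p-values up to 0.044. The other 2 shuttle genes had negative differences, DSK2 of -0.22 (limma adjusted p = 0.103) and RAD23 of -0.14 (0.108), and both passed as lower with the replicate block (0.011 and 0.0439). Genes of the Cdc48 segregase, which extracts tagged proteins from complexes, ran from -0.09 for CDC48 to 0.10 for UFD1, and 0 of 5 were called in limma (0 with an unadjusted p under 0.05).

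UBI4 and UBA1, of the 3 listed genes that supply ubiquitin, rose. UBI4, the stress-inducible polyubiquitin gene, had signals of 460.5, 460.5 and 529 in the mutant, against 234, 199 and 252 in wild type. Its log2 difference was 1.09 ± 0.10 (SE; limma adjusted p = 4.20e-05), and it was 0.97 after quantile normalization. UBA1, for the enzyme that activates ubiquitin, had 820.1, 799 and 883 in the mutant, against 712, 646 and 716 in wild type (log2 0.27 ± 0.07, SE; limma adjusted p = 0.0144). The UBA1 call held after quantile normalization (log2 0.32, limma adjusted p = 0.00957) and ended without mutant replicate 3 (0.0726). DOA4, for an enzyme that recovers ubiquitin, was dim and at 0.21 (limma adjusted p = 0.198). Over the 35 listed pathway genes that are no members, 7 were higher, or 20%, close to the 17.9% over all genes. In limma 0 of the 35 were lower, with 2 at an unadjusted p under 0.05.

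**Figure D5:**
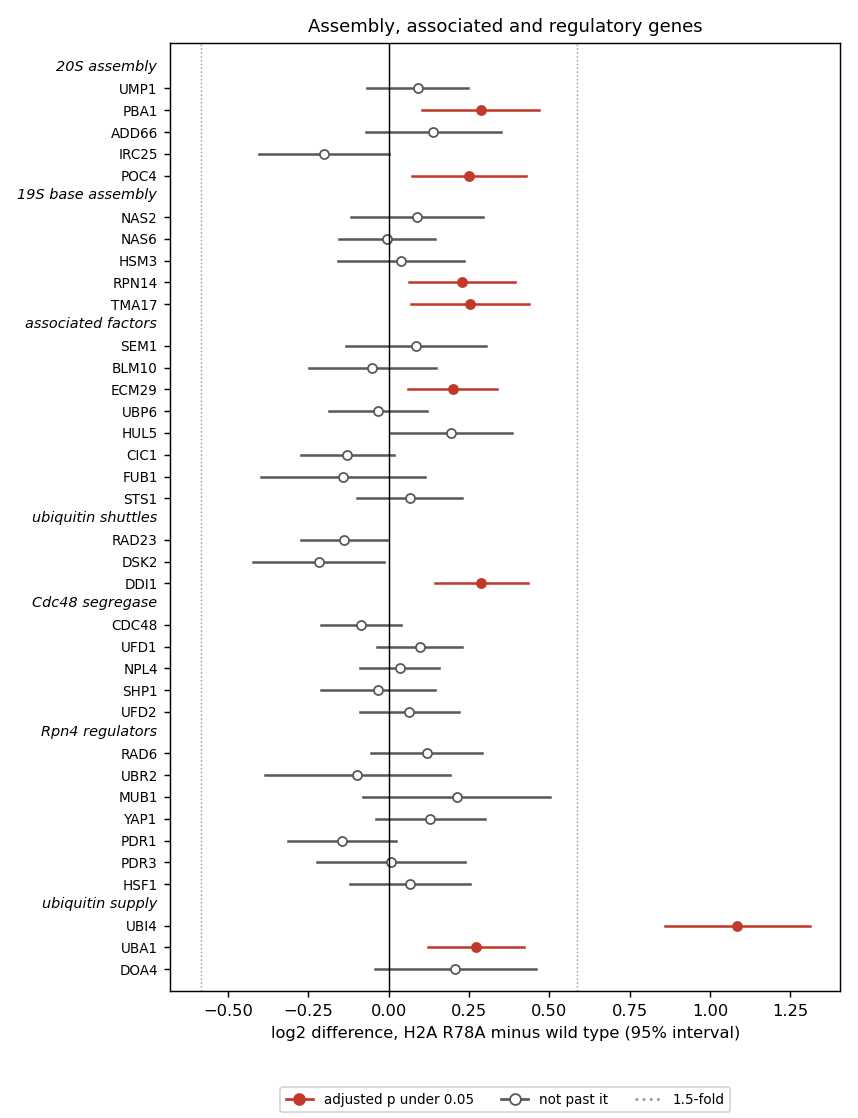
Log2 difference between H2A R78A and wild type (x axis) for 36 listed genes around the proteasome (rows, grouped by role; RPN14 appears again as a base chaperone), with 95% intervals of the limma fit; filled red symbols passed an adjusted p of 0.05 and dotted lines mark 1.5-fold. UBI4 stands apart at 1.09, and the other 7 genes that passed lie between 0.20 and 0.29.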

How the data were processed

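The authors deposited probe set signal intensities of 6 one-colour Affymetrix arrays, 3 per genotype, on a linear scale. MAS5 and limma are named per the submitters' processing notes, and no version is given there. Every array has a mean of 500 after trimming 2% of the probe sets at either end. A single gene symbol was annotated to 5498 of 5900 probe sets (12 symbols updated through gene IDs), and 47 genes had several, of which the brightest on average was kept. Log2 signals of 5449 genes were fitted in limma 3.58.1 (R 4.3.3; lmFit, eBayes with trend, two-sided) with Benjamini-Hochberg adjustment and a threshold of 0.05. The lowest 25% of genes by mean log2 signal were taken as at background. The procedure was run on simulated data with independent noise for each gene and array, so movement shared between genes was not covered. Recovery was required there only for changes larger than the difference of any member. Figures used matplotlib 3.10.9.

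Residuals of equally numbered arrays correlated across genes (r = 0.206, 0.383 and 0.427), so the numbers in the labels were taken to pair the arrays. For replicate 1 this was weak, as mutant replicate 1 and wild-type replicate 3 had r = 0.154. Among genes above background that value was 0.194, against 0.106 for the arrays numbered 1. A fit with the number as a block was added as an alternative. The other alternatives were quantile normalization, median centring, cyclic loess, leaving out dim genes, raising low values to the 10th percentile, averaging probe sets, no trend, array weights, omission of each array and a threshold of 0.01.

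Members, gene lists and alternatives were chosen with earlier results of these data known, so no p-value is given for a list. Every array's signal is given for RPN4, the catalytic subunit genes, RPN10, RPN11, RPN13, members past the threshold and the largest difference in each direction among the rest. Pathway genes past the threshold are named; other genes given with signals or as single pathway values were chosen after their values were seen. Sequences were not used here.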

Additional observations from a re-analysis of the deposited data

How the results depend on the processing

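Counts depended on scaling and on single arrays. Members higher, 1 as reported, numbered 0 with quantile normalization, median centring, cyclic loess, dim genes filtered out, low values raised and the 0.01 threshold, and 2 (PRE2 and RPN12) with quantile normalization and the replicate block together. Leaving out each array gave 0 to 0. Members lower, 3 as reported, numbered 1 with quantile normalization, cyclic loess and low values raised, 4 with median centring (RPN10 added), 8 with array weights and with the replicate block, 0 at 0.01 and 0 to 8 with an array left out (0 without mutant replicate 1, 1 without mutant replicate 3 or wild-type replicate 1, 8 without mutant replicate 2). All genes higher, 976 as reported, numbered 573 with quantile normalization, 632 with cyclic loess, 419 with dim genes filtered out, 574 with low values raised and 584 at 0.01. All genes lower, 500 as reported, numbered 875 with median centring, 312 without trend, 920 with array weights, 857 with the replicate block, 839 with the block after quantile normalization, 138 at 0.01 and 194 to 601 with an array left out (194 without mutant replicate 3, 228 without mutant replicate 1 or wild-type replicate 1, 308 without wild-type replicate 2). Increases made up 66.1% of calls as reported, 51.7% after quantile normalization and 48.1% with median centring.

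The core and cap medians were -0.012 and -0.0038 with quantile normalization (with or without the replicate block), -0.13 and -0.14 with median centring, and -0.0101 and 0.0079 with cyclic loess. Core minus cap was -0.018 with cyclic loess, -0.015 with RPN14 counted in the cap and -0.020 to 0.044 with an array left out. The RPN4 difference ranged from -0.24 to -0.077 with an array left out, and passed only without wild-type replicate 3. PUP1, not called in any setting, had a positive difference of 0.0089 with quantile normalization (with or without the block) and 0.021 with cyclic loess. RPN11, likewise never called, ranged from -0.0084 to 0.18 with an array left out. The causes were not tested. On the deposited scale the replicate block changed no call of a member or listed gene beyond those named in the results. The number of arrays limits what can be told apart.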
